A study of Caenorhabditis elegans with 8 samples.

Results

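The 9 genes described here act in macroautophagy in *C. elegans*. They were chosen by name from the pathway, as *unc-51*, *bec-1*, *lgg-1*, *lgg-2*, *atg-7*, *atg-9*, *atg-18*, *epg-5*, and *sqst-1*. The rule itself uses no level, but the choice was made with earlier results of these data known. All 9 were found among the 42048 entries of the count table, and all 9 were among the 14334 genes kept by a filter on low counts. RNA from whole L4 stage worms of 2 genotypes was sequenced, the wild-type strain N2 and the backcrossed null mutant *nhr-49*(*nr2041*), which lacks function of a nuclear hormone receptor of lipid metabolism. Worms of each genotype were untreated or were exposed to 7.5 mM tBOOH (tert-butyl hydroperoxide, an organic peroxide) for 4 hr, and all fed on *E. coli* OP50. Each of these 4 groups has 2 libraries, whose labels carry the replicate numbers 1 and 3. The study describes them as biological replicates, while the labels do not state that they came from separate cultures. The p-values thus rest on the spread between libraries, estimated over all 8 libraries.

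In autophagy, a double membrane grows around a piece of cytoplasm, closes into an autophagosome, and fuses with the lysosome, where the cargo is degraded. A kinase complex starts the process, a lipid kinase complex marks the membrane, and a conjugation system attaches small ubiquitin-like proteins of the Atg8 family to it. Receptors tie the cargo to these proteins and are degraded with it. In *C. elegans*, the pathway is known for the clearance of protein aggregates in the embryo, for survival of starvation, and for its requirement in several long-lived mutants. A transcript level measures neither the protein nor the flux through the pathway.

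The libraries held 2157766 to 5852727 counts, so 1 count stands for 0.169 to 0.518 CPM. This unit of level, used below, is a library's counts scaled to a common total, here with TMM factors (trimmed mean of M-values). Counts on *nhr-49* itself were 298 to 648 in the 4 wild-type libraries and 41 to 140 in the 4 mutant libraries. Markers of intestine, body wall muscle, neurons, hypodermis, sperm, oocytes, yolk, and adult cuticle were all detected, and no marker gene was at 0 in any library. Both *nhr-49* libraries of replicate 3 stood apart. Their 6 yolk protein genes summed to 833 CPM without and 3560 CPM with tBOOH, against 23569 to 85701 CPM in the other 6 libraries. Their 6 oocyte genes summed to 385 and 334 CPM against 1372 to 3096 CPM, and their 12 sperm genes to 112 and 267 CPM against 507 to 806 CPM. The adult cuticle gene *col-19* was at 6.32 and 74.9 CPM there against 394 to 951 CPM. Counts of calls, and the values that moved most, are therefore also given without these libraries. Markers also moved with tBOOH. The 3 intestine genes summed to 4869 and 5353 CPM in wild-type without tBOOH and 2744 and 2838 CPM with it. The 3 hypodermis genes, *rol-6*, *dpy-7*, and *bli-1*, summed to 450 and 1201 CPM there without tBOOH and to 30.1 and 95.1 CPM with it. In *nhr-49* worms the intestine sums were 4543 and 6906 CPM without and 4996 and 5008 CPM with tBOOH, and the hypodermis sums 382 and 733 CPM and 161 and 511 CPM. The body wall muscle genes *unc-54* and *myo-3* summed to 12101 to 12937 CPM in the untreated and 8331 to 9771 CPM in the treated libraries of both genotypes. The part of these markers in the results below was not tested. In RNA from whole worms, fewer cells of a type and less RNA per cell cannot be told apart.

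tBOOH raised *lgg-1*, *lgg-2*, *atg-18*, and *sqst-1* in both genotypes, by 2.50- to 3.53-fold in wild-type and by 2.85- to 4.65-fold in *nhr-49* worms. These are both Atg8 family genes, a gene of membrane growth, and a cargo receptor. *unc-51*, *bec-1*, *atg-7*, *atg-9*, and *epg-5* did not pass the test in either genotype. In the edgeR exact test, 4 of 9 genes were thus higher in wild-type, where 2.20% of all genes kept were, and 4 of 9 were higher in *nhr-49* worms, where 2.72% were. The call was made at a Benjamini-Hochberg adjusted p under 0.05 over the 14334 genes. In both genotypes together, 1.20% of genes were called higher. None of the 9 was called lower. Both treated libraries lay above both untreated ones for 9 of 9 genes in wild-type, as for 32.3% of all genes, and for 8 of 9 in *nhr-49* worms, as for 19.6% of all genes. The separation was seen in both genotypes for 8 of 9 genes, as for 11.6% of all genes. The median log2 fold change of the 9 was 1.01 in wild-type and 1.11 in the mutant, against 0.05 and 0.04 over all genes kept.

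**Figure D1:**
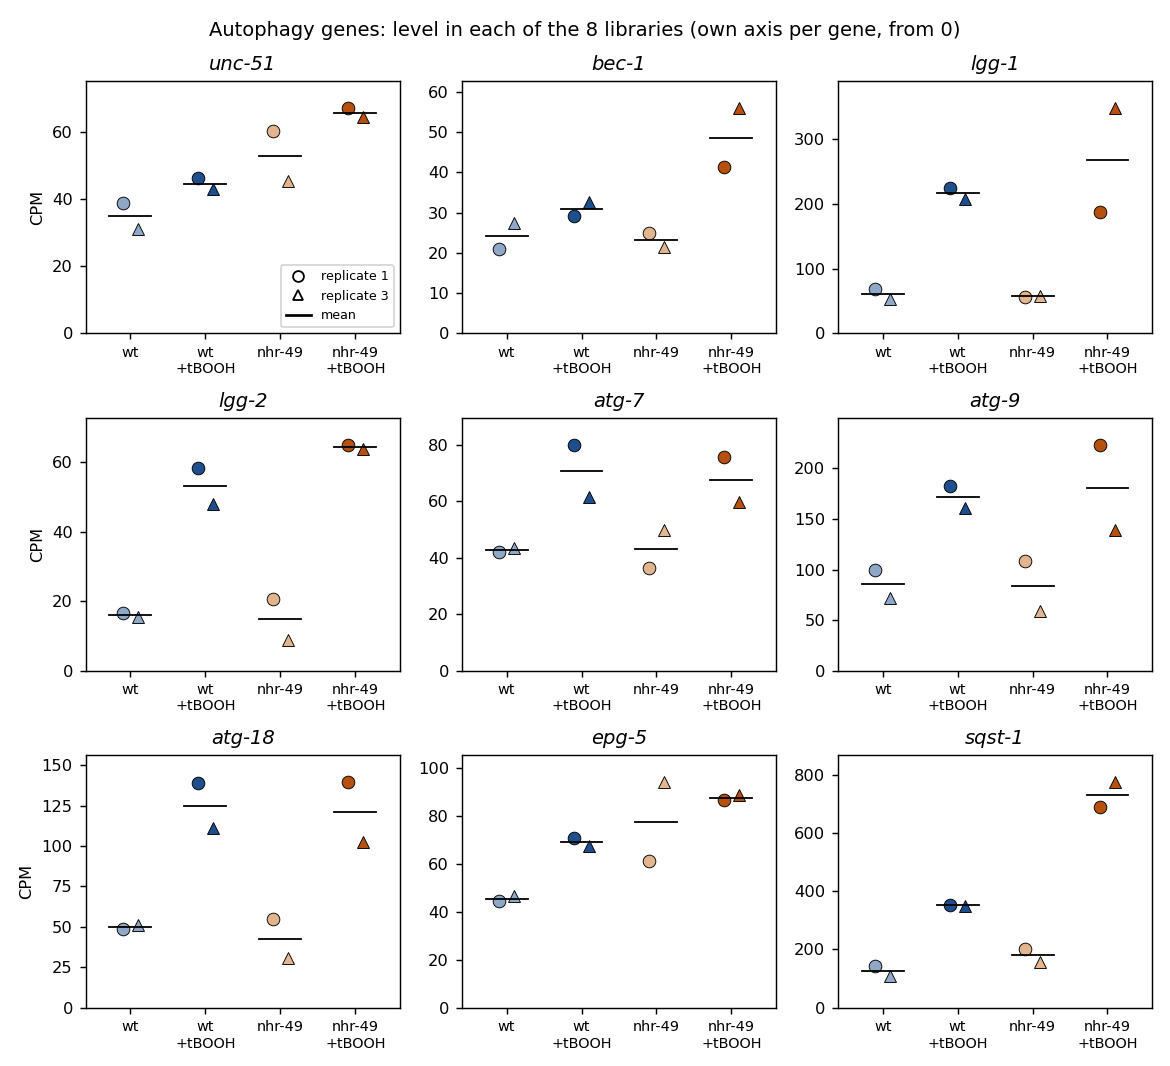
Level of each of the 9 genes in CPM (vertical axis, from 0, with its own scale for each gene) in the 8 libraries, by group. Circles are replicate 1, triangles replicate 3, and bars the mean of 2 libraries. *sqst-1* was at 107 and 142 CPM in untreated wild-type worms and at 687 and 773 CPM in tBOOH-treated *nhr-49* worms.

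UNC-51 is the kinase that starts autophagosome formation, the counterpart of yeast Atg1 and mammalian ULK1. Its gene (WBGene00006786, chromosome V) was at 38.9 CPM in replicate 1 and 31 CPM in replicate 3 of untreated wild-type worms, and at 46.4 and 42.8 CPM after tBOOH, here and below with replicate 1 first. The mutant was at 60.1 and 45.4 CPM untreated and at 67.0 and 64.3 CPM treated. Treated libraries lay above untreated ones in each genotype, but by little. By tBOOH, wild-type changed by a log2 fold of 0.35 (SE 0.34 in the DESeq2 fit) and the mutant by 0.32 (SE 0.35), with adjusted p-values of 0.727 and 0.814 in the edgeR exact test. All 4 mutant libraries were above the wild-type libraries of the same treatment.

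BEC-1 is Beclin 1, a subunit of the complex around the lipid kinase VPS-34. *bec-1* (WBGene00000247, chromosome IV) was at 20.9 and 27.4 CPM in wild-type before and at 29.1 and 32.6 CPM after tBOOH. The mutant values were 24.9 and 21.6 CPM untreated and 41.3 and 56.0 CPM treated, so the treated mutants held the highest levels. In wild-type the log2 fold change was 0.35 (SE 0.39, adjusted p = 0.759, edgeR exact test), and in the mutant it was 1.07 (SE 0.40, adjusted p = 0.103).

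LGG-1 and LGG-2 are the 2 Atg8 family proteins of the worm, related to mammalian GABARAP and LC3. Bound to lipid, they sit on the autophagosome membrane. *lgg-1* (WBGene00002980, chromosome II) had 299 and 280 counts in wild-type without tBOOH and 1328 and 1094 counts after exposure, or 68.8 and 53.6 CPM and 225 and 207 CPM. Untreated mutants had 109 and 157 counts and treated mutants 800 and 1670 counts, or 56.5 and 58.4 CPM and 187 and 348 CPM. Untreated libraries of both genotypes covered a narrow range, all treated libraries lay far above it, and the treated mutants spread widely around the treated wild-type libraries. *lgg-1* rose 3.53-fold in wild-type (log2 1.82, SE 0.39, adjusted p = 0.000738, edgeR exact test) and 4.65-fold in *nhr-49* worms (log2 2.22, SE 0.40, adjusted p = 2.28e-05). By its p-value it ranked 205 among the 14334 genes in wild-type and 94 in *nhr-49* worms.

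*lgg-2* (WBGene00002981, chromosome IV) was the less abundant of the pair. Wild-type worms had 72 and 80 counts untreated and 345 and 254 counts after tBOOH, or 16.6 and 15.3 CPM and 58.4 and 48.1 CPM. The mutants had 40 and 24 counts untreated and 278 and 307 counts treated, or 20.7 and 8.93 CPM and 64.9 and 63.9 CPM. The 2 untreated mutant libraries lay on either side of the untreated wild-type libraries. *lgg-2* rose 3.34-fold in wild-type (log2 1.74, SE 0.43, adjusted p = 0.00422, edgeR exact test) and 4.41-fold in *nhr-49* worms (log2 2.14, SE 0.45, adjusted p = 0.000467).

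The ratio of *lgg-1* to *lgg-2* counts stayed between 3.5 and 4.31 in the 4 wild-type libraries. It was 2.73 and 2.88 in the *nhr-49* libraries of replicate 1, without and with tBOOH, and 6.54 and 5.44 in those of replicate 3. The ratio thus differed more between the mutant replicates than between treated and untreated libraries. The replicate 3 libraries are those low in yolk and oocyte genes.

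ATG-7 is the E1-like enzyme that activates the Atg8 family proteins for conjugation. *atg-7* (WBGene00010882, chromosome IV) was at 41.9 and 43.3 CPM in wild-type before and at 79.9 and 61.4 CPM after tBOOH. The mutant values were 36.3 and 49.8 CPM before and 75.7 and 59.7 CPM after. Groups did not overlap in either genotype, but the change was smaller than those of the transcripts of *lgg-1* and *lgg-2*. This difference between genes was not tested. Wild-type showed a log2 fold change of 0.73 (SE 0.36, adjusted p = 0.304, edgeR exact test) and the mutant one of 0.65 (SE 0.37, adjusted p = 0.450).

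ATG-9 is a transmembrane protein whose vesicles supply membrane to the growing autophagosome. *atg-9* (WBGene00020706, chromosome V) was at 99.4 and 71.7 CPM in wild-type without tBOOH and at 183 and 161 CPM with it. Untreated mutants were at 109 and 59.1 CPM and treated mutants at 223 and 139 CPM, with replicate 1 the higher in each group. The mean was 2.01-fold higher with tBOOH in wild-type (log2 1.01, SE 0.41) and 2.16-fold higher in *nhr-49* worms (log2 1.11, SE 0.41). Neither passed the edgeR exact test, with adjusted p-values of 0.196 and 0.151.

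ATG-18 is a WIPI family protein that binds the lipid made by VPS-34 and acts with ATG-2 on the growing membrane. *atg-18* (WBGene00018294, chromosome V) had 213 and 267 counts in wild-type without tBOOH and 821 and 587 counts after exposure, or 49 and 51.2 CPM and 139 and 111 CPM. For the mutants the counts were 106 and 82 untreated and 597 and 492 treated, or 54.9 and 30.5 CPM and 139 and 102.4 CPM. Every treated library exceeded every untreated one, in either genotype. *atg-18* rose 2.50-fold in wild-type (log2 1.32, SE 0.38, adjusted p = 0.0271, edgeR exact test) and 2.85-fold in *nhr-49* worms (log2 1.51, SE 0.39, adjusted p = 0.0113).

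EPG-5 acts late, when autophagosomes mature into degradative autolysosomes. *epg-5* (WBGene00016968, chromosome II) was at 44.4 and 46.6 CPM in wild-type before and at 70.7 and 67.4 CPM after tBOOH. Mutants were at 61.1 and 94.1 CPM before and at 86.9 and 88.7 CPM after, so that the treated and untreated libraries overlapped. It was the only one of the 9 with such an overlap. Its log2 fold change was 0.60 in the wild-type (SE 0.35, adjusted p = 0.425, edgeR exact test) and 0.17 in the mutant (SE 0.35, adjusted p = 0.948). The gene shares 8 exonic bases with *vps-33.2* on the other strand, and no other member overlaps a neighbour.

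SQST-1 is the counterpart of mammalian p62, a receptor that binds ubiquitinated cargo and the Atg8 family proteins. *sqst-1* (WBGene00011737, chromosome IV) had 617 and 561 counts in wild-type without tBOOH and 2093 and 1842 counts after exposure, or 142 and 107 CPM and 354 and 349 CPM. Mutant counts were 392 and 422 untreated and 2943 and 3716 treated, or 203 and 157 CPM and 687 and 773 CPM. The 4 groups did not overlap with each other and took the order untreated wild-type, untreated mutant, treated wild-type, treated mutant. *sqst-1* rose 2.82-fold in wild-type (log2 1.50, SE 0.31, adjusted p = 0.00279, edgeR exact test) and 4.06-fold in *nhr-49* worms (log2 2.02, SE 0.31, adjusted p = 1.49e-05).

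**Figure D2:**
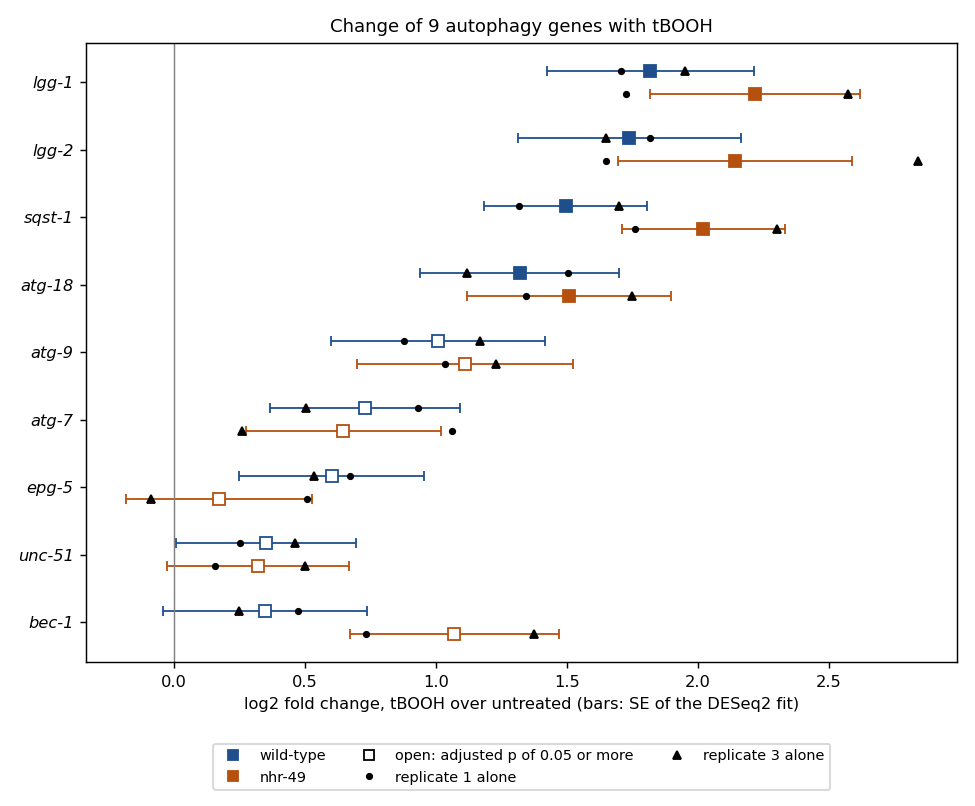
The log2 fold change with tBOOH (horizontal axis) of the 9 genes in wild-type (blue) and *nhr-49* worms (orange), with the SE of the DESeq2 fit as bars. Filled squares have an adjusted p under 0.05 in the edgeR exact test, and small circles and triangles give replicate 1 and replicate 3 alone. The 4 filled genes, *lgg-1*, *lgg-2*, *sqst-1*, and *atg-18*, are filled in both genotypes.

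The number of calls depended on the estimate of spread. The quasi-likelihood test of edgeR, with the same fold changes, called 2 of the 9 in wild-type (*lgg-1* and *sqst-1*), where it called 0.719% of all genes higher. In *nhr-49* worms it called 3 (*lgg-1*, *lgg-2*, and *sqst-1*), where it called 0.970% of all genes higher. The wild-type calls also rested on each wild-type library. Without untreated replicate 1 or without tBOOH replicate 3, *lgg-1* alone was called in wild-type, and without untreated replicate 3 or tBOOH replicate 1 none of the 9 was. The fold changes kept their direction in each case. Without both *nhr-49* libraries of replicate 3, 6 of the 9 were called in wild-type, with *atg-9* (log2 1.01) and *atg-7* (log2 0.73) added, while the share of all genes called higher rose to 8.51%. In *nhr-49* worms, the same 4 genes were called without those libraries, where 1.60% of all genes were called higher, with log2 fold changes of 1.73 for *lgg-1*, 1.65 for *lgg-2*, 1.76 for *sqst-1*, and 1.34 for *atg-18*. The log2 fold change of *bec-1*, not called, went from 1.07 to 0.73. That comparison has 1 library in each mutant group, which are assumed to vary like the other groups. *atg-18* lost its call in *nhr-49* worms without untreated replicate 3, at a log2 fold change of 1.14.

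Levels of different genes can be compared only per length, here as CPM per kilobase of exonic sequence. In untreated wild-type worms *lgg-1* was highest at 86.5 ± 15.1 CPM per kilobase (SD, n = 2), followed by *sqst-1* at 55.4 ± 10.8. *atg-18* (27.8 ± 0.847), *atg-9* (23.8 ± 5.46), *atg-7* (20.4 ± 0.487), and *bec-1* (18.1 ± 3.43) came next, followed by *lgg-2* (15.3 ± 0.839). Among these 5, each differed from the next by less than the larger of their SDs. *unc-51* (12.1 ± 1.91) and *epg-5* (6.24 ± 0.210) were lowest. The Atg8 family gene *lgg-2* moved from place 7 to place 4 with tBOOH in wild-type, at 51.2 ± 6.98 CPM per kilobase, and from place 8 to place 4 in *nhr-49* worms, at 62.0 ± 0.699. Its place among neighbours was not resolved. *atg-9* followed at 47.9 ± 4.27 in treated wild-type and 50.4 ± 16.6 in treated *nhr-49* worms, where *atg-18* was ahead at 67.1 ± 14.5. Each differed from *lgg-2* by less than the larger SD. *lgg-1* and *sqst-1* took the first places in all 4 group means. In wild-type libraries *sqst-1* was at 0.495 to 0.648 of the level of *lgg-1* per kilobase. In *nhr-49* worms this ratio was 1.13 and 1.16 in replicate 1 and 0.845 and 0.699 in replicate 3.

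The comparison of genotypes asks whether these genes need *nhr-49*. None of the 9 was called between *nhr-49* and wild-type worms, either untreated or with tBOOH, in the edgeR exact test, where 0.998% and 2.30% of all genes were called. At an unadjusted p under 0.05, 1 of the 9 differed in each comparison, as did 7.56% of all genes untreated and 9.72% with tBOOH. These comparisons use the same libraries as those of tBOOH against untreated worms. Untreated, the mutant libraries exceeded those of wild-type for *unc-51*, *epg-5*, and *sqst-1* in both replicates and without overlap, that is, 3 of 9 genes, as for 18.3% of all genes. With tBOOH they did so for *lgg-2*, *bec-1*, *unc-51*, *epg-5*, and *sqst-1*, that is, 5 of 9, as for 20.4% of all genes. For none of the 9 did both mutant libraries lie below both wild-type libraries, as they did for 20.7% of all genes untreated and 22.0% with tBOOH. With tBOOH, 7 of the 9 had the higher mean in the mutant, as had 6663 of the 14334 genes kept. The others of the 9 were *atg-7* and *atg-18*. The direction for these latter genes turned with the normalization of DESeq2.

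The largest of these differences was that of *sqst-1* with tBOOH, at 730 ± 60.9 CPM in the mutant and 352 ± 3.65 CPM in wild-type (SD, n = 2 each). Its log2 difference was 1.05 (SE 0.31), with an adjusted p of 0.120 in the edgeR exact test. The adjusted p was 0.175 in the quasi-likelihood test and 0.0125 in DESeq2, which called 2.49% of the genes higher in the mutant, and it ranged from 0.0125 to 1 over the alternatives. Without *nhr-49* tBOOH replicate 1 it was 0.0214, and without both *nhr-49* libraries of replicate 3 it was 0.0770, at a log2 difference of 0.97. *epg-5* in untreated worms had the largest difference without tBOOH, at 77.6 ± 23.3 CPM in the mutant and 45.5 ± 1.53 CPM in wild-type. Its log2 difference was 0.78 (SE 0.36), with an adjusted p of 0.575. This place rested on replicate 3 of the mutant, since without both *nhr-49* libraries of that number the untreated log2 difference was 0.43 for *epg-5*, 0.78 for *unc-51*, and 0.70 for *sqst-1*. With all libraries, *unc-51* differed by nearly the same amount under both conditions, at log2 differences of 0.59 (SE 0.35) untreated and 0.56 (SE 0.34) with tBOOH.

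The remaining members were close between untreated genotypes. The log2 difference was -0.09 for *lgg-1*, -0.13 for *lgg-2*, -0.06 for *bec-1*, 0.02 for *atg-7*, -0.03 for *atg-9*, and -0.24 for *atg-18*. With tBOOH it was 0.31 for *lgg-1*, 0.27 for *lgg-2*, 0.66 for *bec-1*, -0.06 for *atg-7*, 0.07 for *atg-9*, and -0.05 for *atg-18*. These intervals were wide. For *lgg-1* with tBOOH the 95% interval of the DESeq2 fit ran from -0.37 to 1.16, and for *atg-18* from -0.71 to 0.76. Differences within these intervals are therefore not excluded.

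**Figure D3:**
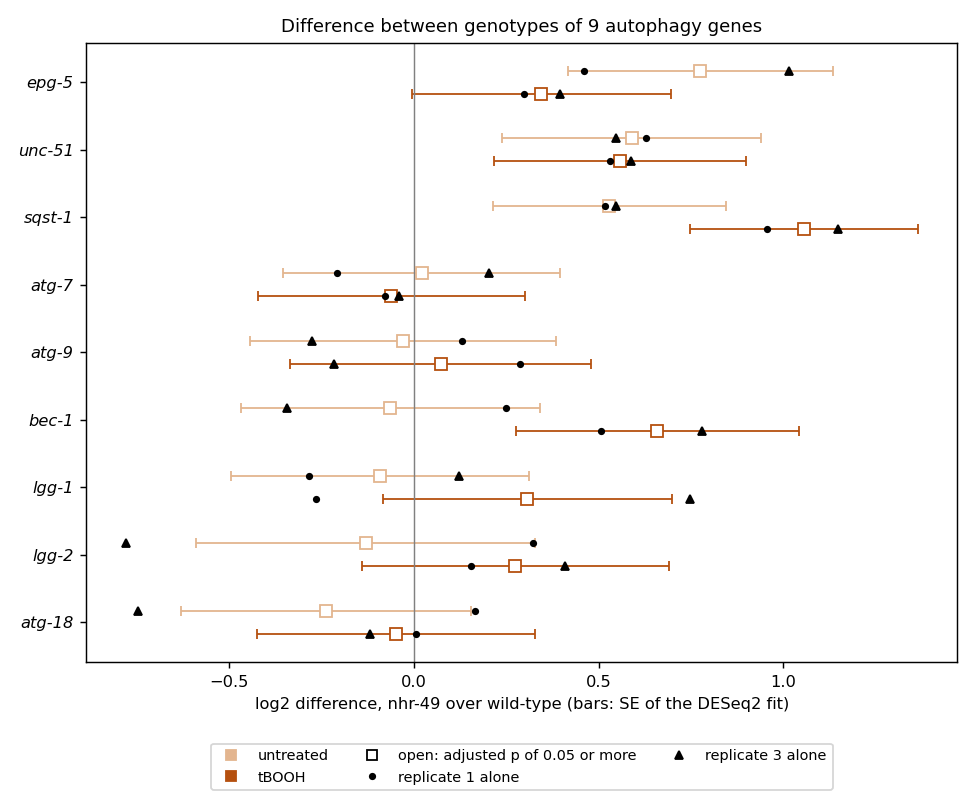
The log2 difference between *nhr-49* and wild-type worms (horizontal axis) of the 9 genes, untreated (light) and with tBOOH (dark), with the SE of the DESeq2 fit as bars. All squares are open, that is, no adjusted p was under 0.05 in the edgeR exact test. Small circles and triangles give replicate 1 and replicate 3 alone, which lie on opposite sides of 0 for *lgg-1* under both conditions.

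Whether the response to tBOOH differed between genotypes was tested as an interaction of genotype and treatment. None of the 9 was called in the quasi-likelihood test of edgeR, none had an unadjusted p under 0.05, and neither DESeq2 nor the likelihood ratio test of edgeR called any. Over all genes the quasi-likelihood test called 0% (523 at an unadjusted p under 0.05), while DESeq2 called 16 and the likelihood ratio test 11. The change was nominally larger in the mutant for *bec-1* (log2 0.72), *sqst-1* (0.53), *lgg-1* (0.40), *lgg-2* (0.40), *atg-18* (0.19), and *atg-9* (0.10). It was smaller for *epg-5* (-0.43), *atg-7* (-0.08), and *unc-51* (-0.03). Over all genes kept, the interaction was above 0 for 7110 of 14334. The 95% interval of the DESeq2 fit ran from -0.29 to 1.44 for *sqst-1* and from -0.65 to 1.55 for *lgg-1*, so neither an equal response nor one more than 2-fold larger in the mutant falls outside it. Without both *nhr-49* libraries of replicate 3, the interaction was 0.26 for *sqst-1*, 0.38 for *bec-1*, -0.10 for *epg-5*, and -0.09 for both *lgg-1* and *lgg-2*.

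The other genes of the pathway were taken from a list by role, of which 45 were found and 44 kept. This list was also made with earlier results of these data known. Of the 21 kept genes of autophagosome formation and cargo binding, 8 were called higher with tBOOH in wild-type, 5 in *nhr-49* worms, and none lower (edgeR exact test, adjusted p under 0.05), where 2.20% and 2.72% of all genes were called higher. Their median log2 fold change was 1.13 in wild-type and 0.85 in the mutant. Among initiation genes, *atg-13*, whose protein forms a complex with UNC-51, was at 32.4 and 33.3 CPM in wild-type before and at 110 and 101 CPM after tBOOH. The mutant values were 23.8 and 29.4 CPM and 90.6 and 90.7 CPM. It rose by log2 1.68 and 1.76 in the respective genotypes, while *unc-51* itself was not called. *atg-13* shares 134 exonic bases with D2007.1 on the other strand, and whether strand was used in counting is not given in the sources used here. *atg-11*, which encodes a scaffold and is named *epg-7* in the annotation, was called in wild-type alone (log2 1.13, against 0.85 in *nhr-49* worms).

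In the lipid kinase complex, *epg-8*, the counterpart of Atg14, was called in wild-type (log2 1.45) and had a log2 fold change of 0.30 in *nhr-49* worms. *vps-34* and *vps-15* were not called, and nor was *bec-1*. Among genes of membrane supply, *atg-2* (log2 1.52 in wild-type and 1.40 in *nhr-49* worms) and *epg-6*, which encodes another WIPI family protein (1.24 and 1.47), rose in both genotypes along with *atg-18*. *epg-3* had lower values with tBOOH in both, at log2 -0.60 each without overlap of the groups, and was not called (adjusted p = 0.461 and 0.513, edgeR exact test). *epg-4* was at 8.28 and 11.3 CPM in wild-type before and at 43.7 and 38.1 CPM after tBOOH, and in the mutant at 19.2 and 11.9 CPM and at 27.6 and 23.5 CPM. It rose by log2 2.05 in wild-type, and its log2 fold change of 0.73 in *nhr-49* worms did not pass the test. The interaction was not called for *atg-11*, *epg-8*, or *epg-4* (log2 -0.28, -1.15, and -1.33, adjusted p = 1 each, edgeR quasi-likelihood test), so a difference between genotypes was not shown. That test called 0% of all genes. Its unadjusted p was under 0.05 for 2 of the 21 core genes, 1 in the lipid kinase complex and 1 in membrane supply. Over all genes kept, this held for 523 of 14334.

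Of the conjugation system, *lgg-1* and *lgg-2* alone were called. *atg-7* and the 7 other conjugation genes kept were not called in either genotype, and the log2 fold changes of those 7 ran from -0.78 to 1.46 in wild-type and from -0.27 to 1.65 in *nhr-49* worms. Of the other receptors and scaffolds, 2 of 4 were called higher in both genotypes, as were 1.20% of all genes. *dct-1*, a receptor for the removal of mitochondria, had 19 and 14 counts in wild-type before and 69 and 75 counts after tBOOH, and in the mutant 5 and 11 counts before and 70 and 101 counts after. It rose by log2 1.88 in wild-type and 2.44 in *nhr-49* worms. R102.5, the gene of ALLO-1, a receptor for the removal of paternal mitochondria, rose by log2 1.29 and 1.90. The larger value in *nhr-49* worms came from replicate 3, with a log2 fold change of 1.28 in replicate 1 and 2.54 in replicate 3. None of the 13 genes of fusion and the lysosome and none of the 10 regulators was called in either genotype. With 2.20% and 2.72% of all genes called higher, no call in lists this short says little. The median log2 fold changes of these lists lay between 0.22 and 0.35, against 0.05 and 0.04 over all genes kept. In the quasi-likelihood test, 3 of the 21 core genes were called in wild-type and 4 in *nhr-49* worms, against 0.719% and 0.970% of all genes called higher.

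**Figure D4:**
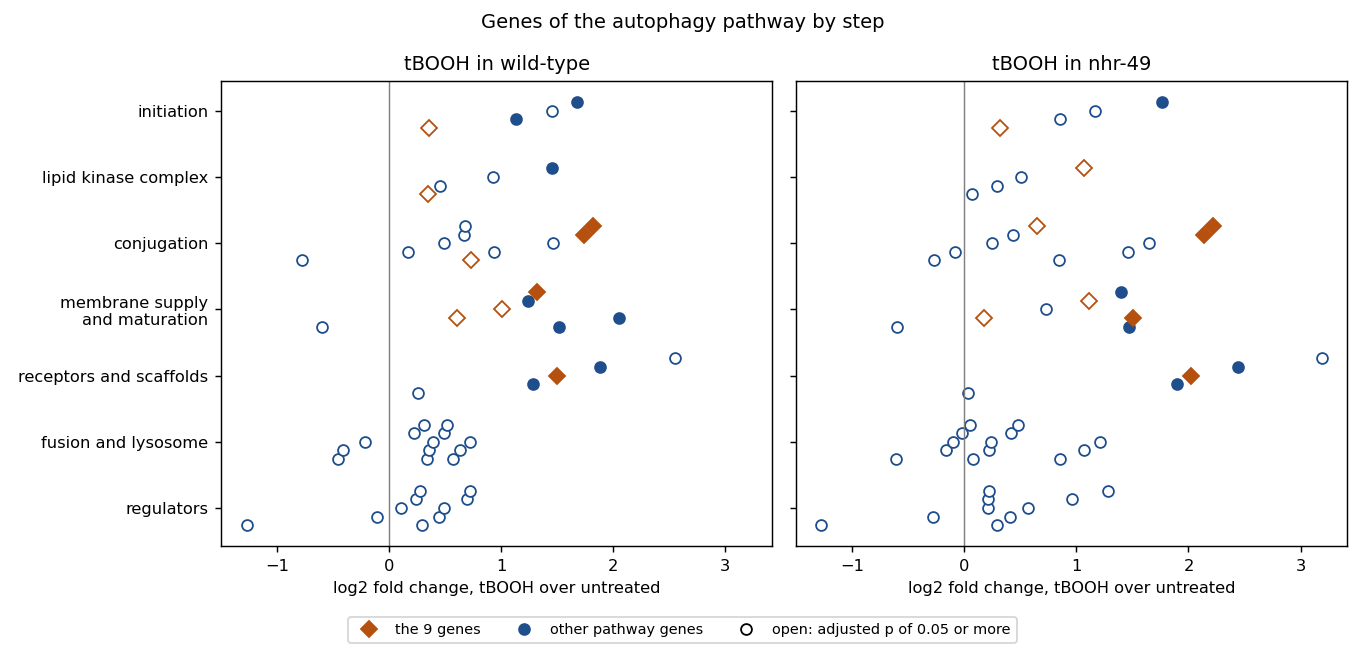
The log2 fold change with tBOOH (horizontal axis) of the 9 genes (diamonds) and 44 other pathway genes (circles) by step of the pathway, in wild-type (left) and *nhr-49* worms (right). Filled symbols have an adjusted p under 0.05 in the edgeR exact test. No symbol is filled among fusion, lysosome, and regulator genes, and in the conjugation group *lgg-1* and *lgg-2* alone are filled. Over all genes kept, 2.20% were called higher in wild-type and 2.72% in *nhr-49* worms.

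Among the regulators, *hlh-30* encodes the worm TFEB, an activator of autophagy genes. Its level was 81.0 and 61.3 CPM in wild-type before and 83.9 and 90.4 CPM after tBOOH. In the mutant it was 74.1 and 56.5 CPM and 121 and 133 CPM. Its log2 fold change was 0.29 (adjusted p = 0.787, edgeR exact test) and 0.96 (adjusted p = 0.106). *mxl-3*, whose protein represses targets of HLH-30, had the lowest values of the list in both genotypes, at log2 -1.27 (adjusted p = 0.0558) and -1.28 (adjusted p = 0.0737). *pha-4*, the FoxA factor, had higher values in the mutant under both conditions. Untreated mutants were at 39.9 and 52.1 CPM and untreated wild-type worms at 25.3 and 22.6 CPM (log2 0.94, adjusted p = 0.453, edgeR exact test). Treated mutants were at 49.3 and 57.9 CPM and treated wild-type worms at 17.3 and 27.3 CPM (log2 1.27, adjusted p = 0.0568). Treated and untreated libraries of *pha-4* overlapped in each genotype, at log2 fold changes of -0.11 for wild-type and 0.22 for the mutant.

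Over the 8 libraries, Pearson's r of log2 CPM between pairs of the 9 genes ran from 0.28 (*atg-9* with *epg-5*) to 0.98 (*lgg-2* with *atg-18*), with a median of 0.74 over 36 pairs. The libraries share their treatment and genotype, so these values describe the common response and are not tests. The 4 lowest values all involved *epg-5* or *unc-51*. The 5 genes with a pattern most like that of *lgg-1* were *cbp-2*, C37A5.3, *hsp-16.2*, *sax-1*, and F22B7.9 (r = 0.987 to 0.996), of which *hsp-16.2* encodes a small heat shock protein. *lgg-2* took place 170 of 14333 in this order and *sqst-1* place 256. For *sqst-1* the 5 were *rbg-1*, K10B4.3, *tbc-14*, F14F9.4, and F47A4.5 (r = 0.986 to 0.992), and *lgg-1* took place 247.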

How the data were processed

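The authors aligned single-end reads to ce10 with STAR after removal of ribosomal RNA, and deposited whole-number counts per gene symbol for the 8 libraries. The counting program, gene annotation, and use of strand are not given in the sources used here. A deposited CPM table was not used. Gene identifiers, lengths, and overlaps come from WBcel235, another build, so no coordinates are given. *allo-1* was matched as R102.5. In R 4.3.3, counts were scaled by TMM, and genes had to exceed a CPM of 1 in 2 or more libraries. Groups came from the labels alone. The exact test of edgeR 4.0.16 used 1 dispersion per gene from all 8 libraries (common dispersion 0.131, a coefficient of variation of 36.2%), with Benjamini-Hochberg adjustment over all genes kept. The interaction was tested by quasi-likelihood, and standard errors and intervals come from DESeq2 1.42.0. The methods were tested on simulated data, whose changes were larger than those of the 9 genes and which held no difference between replicate numbers. That test does not show how well smaller changes are found. All 9 members are named, and of the other pathway genes those called in a comparison or used for a step of the pathway. *hlh-30*, *mxl-3*, and *pha-4* were named after their values were seen. For *lgg-1* and *sqst-1*, the 5 genes with the highest r are named. The members, lists, and tests were chosen with earlier results of these data known. Alternatives were the quasi-likelihood and likelihood ratio tests, DESeq2, RLE normalization, other filters (none, or 10 counts or more in 2 libraries), dispersions estimated within each comparison, the replicate number as a block, and leaving out libraries.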

Additional observations from a re-analysis of the deposited data

How the results depend on the processing

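With 2 libraries per group and 2157766 to 5852727 counts per library, small changes could not be told from the spread. Of the 9 genes, the quasi-likelihood test called 2 with tBOOH in wild-type in place of 4, and DESeq2 called 1 (*sqst-1*) between tBOOH-treated genotypes in place of 0. Leaving out 1 library at a time, or both *nhr-49* libraries of replicate 3 (chosen after seeing the data), gave 0 to 6 calls with tBOOH in wild-type, 3 to 5 in *nhr-49* worms, 0 between untreated and 0 to 1 between treated genotypes. A lone library is assumed to vary like the other groups, and the cause of the lost calls was not tested. Over all genes kept, the alternatives called 153 to 2370 genes in place of 766 with tBOOH in wild-type, and 218 to 1118 in place of 664 in *nhr-49* worms. They called 20 to 668 in place of 143 between untreated and 51 to 794 in place of 329 between treated genotypes, and 0 to 113 in place of 0 for the interaction. No called value changed sign. DESeq2 turned the difference between treated genotypes to 0.0145 for *atg-7* and 0.0265 for *atg-18*, and the interaction of *unc-51* to 0.0138. RLE normalization turned them to 0.0135, 0.0255, and 0.0132. Leaving out libraries, the untreated genotype difference ranged from -0.28 to 0.12 for *lgg-1*, from -0.83 to 0.38 for *lgg-2*, from -0.34 to 0.25 for *bec-1*, from -0.23 to 0.23 for *atg-7*, from -0.53 to 0.35 for *atg-9*, and from -0.75 to 0.16 for *atg-18*. With tBOOH it ranged from -0.27 to 0.88 for *lgg-1*, from -0.12 to 0.17 for *atg-7*, from -0.22 to 0.45 for *atg-9*, and from -0.12 to 0.23 for *atg-18*. The interaction ranged from -0.094 to 0.98 for *lgg-1*, from -0.17 to 1.19 for *lgg-2*, from -0.22 to 0.18 for *unc-51*, from -0.29 to 0.33 for *atg-7*, from -0.28 to 0.60 for *atg-9*, and from -0.18 to 0.67 for *atg-18*. The log2 fold change of *epg-5* with tBOOH in *nhr-49* worms ranged from -0.10 to 0.52. The labels do not say whether replicate numbers pair libraries across groups, and the main tests did not pair them. The deviations of same-numbered libraries correlated by -0.04 to 0.32, and not in every pair of groups by over 0.1. These values cannot settle the pairing. In every group, the yolk, oocyte, sperm, and adult cuticle genes were lower in replicate 3 than in replicate 1. With the replicate number as a block, the quasi-likelihood test called 4 of the 9 with tBOOH in wild-type and 4 in *nhr-49* worms. It called 0 of the 9 in the other comparisons, and 624 and 465 genes over all with tBOOH. Without the block it called 233 and 218 genes over all with tBOOH.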
